A study of Mus musculus with 6 samples.

Results

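The members described here are the genes of oxidative phosphorylation on a mouse two-colour array, grouped by respiratory complex. They were taken by gene symbol: every probe whose platform symbol starts with Nduf, Uqcr or Atp5, or is one of Cox4 to Cox8, Sdha to Sdhd, Cyc1 or Cycs. The rule found 82 probes of 72 genes, among 16281 probes and 10698 named genes on the array. RAW 264.7, an established mouse macrophage cell line, was the only cell source. Cells kept for 48 h with lipopolysaccharide (LPS, 100 ng/ml) and LPS-binding protein (LBP, 100 pM) were set against cells kept for 48 h without either agent. Each of 6 arrays carried both RNAs, with treated RNA in Cy5 on 3 arrays and in Cy3 on the other 3, and each orientation had a set 1, a set 2 and a set 3. Whether each set was a culture of its own is not stated in the labels, so a p-value here reflects the spread over 3 set means, which may be technical.

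Oxidative phosphorylation makes most of the ATP of a resting cell in the inner mitochondrial membrane. Complex I takes electrons from NADH and complex II takes them from succinate, and ubiquinone passes them to complex III, from which cytochrome c carries them to complex IV, where oxygen is reduced. Complexes I, III and IV pump protons, and complex V, the ATP synthase, lets them flow back to make ATP. Macrophages stimulated with LPS are known for a shift of ATP production from mitochondria towards glycolysis.

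Every value below compares treated with untreated cells as a log2 ratio, so a value above 0 means more RNA in treated cells. They are differences, not levels, and the deposited ratios do not show how strongly any member was expressed. The base of the logarithm is not given in the sources used here and was read as 2. Each error is an SD over 3 set means (n = 3), where a set mean averages the arrays of both dye orientations. A value of exactly 0 was treated as missing, and a member was tested only with a value on all 6 arrays. On an array, 7.97% to 17.8% of all probes and 2.44% to 12.2% of member probes were listed at 0. Over all deposited ratios, zeros included, arrays of the same orientation correlated at 0.67 to 0.77 before the sign was turned. Arrays of opposite orientation correlated at -0.66 to -0.41. All 9 probes of Il1b, Il6, Tnf and Nos2, textbook LPS-induced genes that were also used to settle the sign, read higher in treated cells on all 6 arrays.

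Most members showed small ratios after 48 h of LPS and LBP. Of 72 tested probes, which cover 64 genes, 4 were higher in treated cells, 9 were lower and 59 did not pass (limma, Benjamini-Hochberg adjusted p under 0.05 over 12724 probes). The probes that rose were those of Ndufa13, Ndufc2, Ndufaf5 and Cox6a2. Those that fell belonged to Ndufab1, Uqcrh, Cox7a1, Cox7a2, Atp5j2, Atp5k and Atp5k-ps1. Over all probes tested, 14.8% were higher, 12.2% were lower and 27.1% passed in either direction, against 18.1% of the member probes.

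The median member ratio was -0.04, with an SD of 0.05 over the 3 set medians, against -0.01 for all tested probes. The lower and upper quartiles were -0.20 and 0.12 for the members and -0.17 and 0.16 for all probes. Only 2 member probes, of Ndufa13 and Cox6a2, had a ratio beyond 0.5 in either direction, whereas 1627 of all probes (12.8%) did. For 59 of the 72 members the 95% confidence interval of the ratio lay within 0.5 of 0 on both sides, against 69.5% of all probes. For 71 of them it lay within 1, which is a 2-fold change, and the exception was Cox6a2 with an interval from 0.38 to 1.06. A probe that did not pass is therefore bounded by its interval and is not shown to be equal in both conditions.

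**Figure D1:**
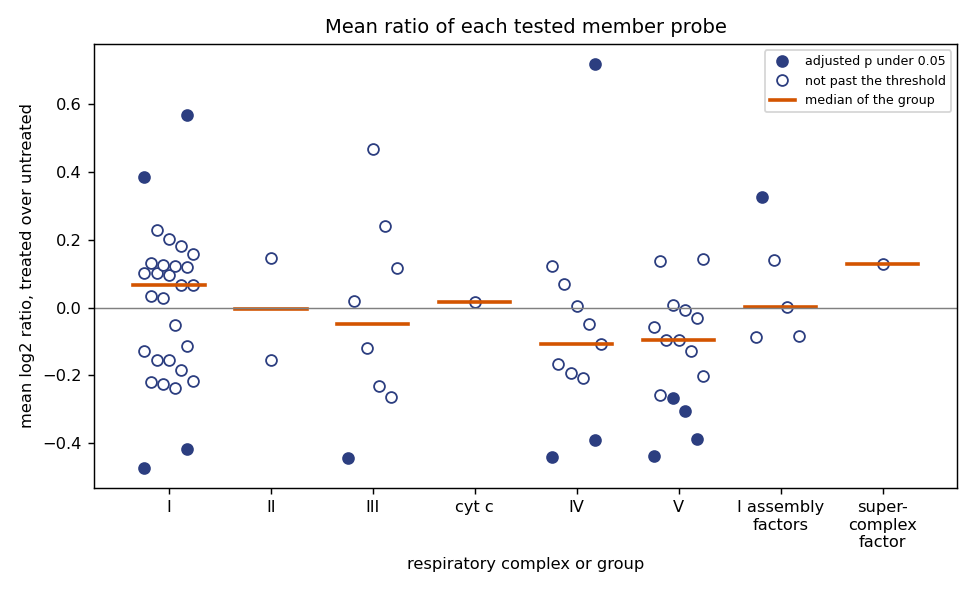
Each point is the mean log2 ratio, treated over untreated, of 1 tested member probe (y axis), placed by respiratory complex or group (x axis); filled points passed an adjusted p of 0.05 and the orange line is the group's median. The medians of complexes I to V lie between -0.11 and 0.07, Cox6a2 stands highest at 0.72 and a probe of Ndufab1 lowest at -0.47.

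The number of calls depended on how ratios of exactly 0 were treated. With zeros kept as values, 3 of the 82 member probes were higher, those of Ndufa13, Ndufc2 and Ndufa3, and 0 were lower. The called share was then 3.66% of member probes, against 8.64% of all 16281 probes. At an unadjusted p under 0.05 limma counted, with zeros kept, 22 member probes and 5024 of all 16281. With zeros missing it counted 23 member probes and 4874 of all 12724. The mean ratios of the 13 called probes are the same in both fits, because those probes have no zeros. Their adjusted p-values with zeros kept were 0.0376 for Ndufa13 and 0.0341 for Ndufc2, and 0.0543 to 0.205 for the other 11. Every member call that was lost when 1 set was left out is named below with its value.

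**Figure D2:**
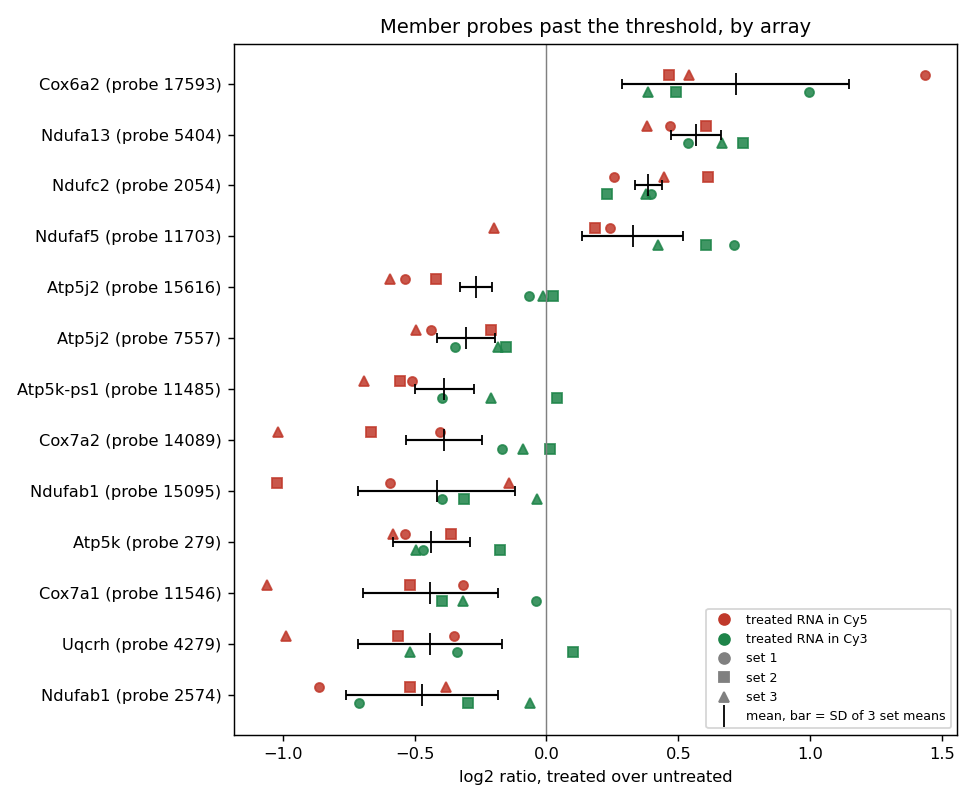
Log2 ratio, treated over untreated (x axis), of the 13 member probes past an adjusted p of 0.05 (y axis) on each of 6 arrays; colour marks the dye of the treated RNA, the marker shape the set, and the black bar the mean with the SD of 3 set means. All 6 arrays lie on 1 side of 0 for 8 of the 13 probes, and all 9 lower probes are more negative with treated RNA in Cy5 (red) than in Cy3 (green).

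The nuclear genes of this system are known to share promoter motifs for nuclear respiratory factor 1 (NRF1) and for GA-binding protein (GABP), an ETS factor. The 250 bases before the annotated start (RefSeq, GRCm38.p6) were searched on both strands for the letters GCGCANGCG (NRF1) and CCGGAAG (GABP, which holds the core shared by many ETS factors). Of the 72 member genes, 61 matched a promoter. The NRF1 letters were in 12 of these 61 (19.7%), against 5.86% of 27025 genes with a promoter, and the GABP letters were in 10 (16.4%), against 7.83%. Of the 9 called genes with a promoter, Atp5k held the first motif and Uqcrh the second. These windows are shown with that of Ndufa13, the complex I subunit with the highest ratio, which held neither; capitals mark a motif match. The Atp5k window, chr5:108434400-108434649 on the minus strand, has overlapping matches on both strands that begin 50 and 49 bases before the start. In the Uqcrh window, chr4:116075071-116075320 on the minus strand, the match begins 10 bases before the start and is on the opposite strand. The Ndufa13 window is chr8:69902021-69902270, also on the minus strand.
Atp5k: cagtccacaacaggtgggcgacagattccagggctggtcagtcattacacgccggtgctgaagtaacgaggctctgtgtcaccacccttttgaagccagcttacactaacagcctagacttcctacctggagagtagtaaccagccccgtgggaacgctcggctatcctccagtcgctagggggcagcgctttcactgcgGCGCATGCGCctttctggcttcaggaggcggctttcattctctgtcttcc
Uqcrh: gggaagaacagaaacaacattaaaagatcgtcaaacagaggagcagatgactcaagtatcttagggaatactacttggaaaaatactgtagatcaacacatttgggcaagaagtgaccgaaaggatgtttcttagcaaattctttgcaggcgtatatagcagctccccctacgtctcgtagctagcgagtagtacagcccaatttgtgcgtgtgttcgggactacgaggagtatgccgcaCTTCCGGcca
Ndufa13: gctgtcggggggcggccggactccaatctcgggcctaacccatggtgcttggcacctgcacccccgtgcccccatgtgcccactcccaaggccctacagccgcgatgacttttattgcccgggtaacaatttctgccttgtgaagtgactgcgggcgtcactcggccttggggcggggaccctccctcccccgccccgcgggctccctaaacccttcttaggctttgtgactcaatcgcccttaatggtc
A match is a description of these letters only, and binding of either factor was not measured.

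Complex I, the NADH dehydrogenase, had the most members, with 29 probes of 26 genes and all of them tested. Of these 2 were higher, 2 were lower and 25 did not pass, and the median was 0.07 with an SD of 0.06 over set medians. In the membrane arm, which pumps protons, 2 of 17 probes were higher and 0 were lower (median 0.07). In the NADH-oxidising part of the matrix arm 0 of 9 were higher and 2 were lower (median 0.03), both of them probes of Ndufab1, a protein also known to sit in the membrane arm. The 2 of 17 are 11.8%, near the 14.8% of all probes that were higher, and no difference between the arms was tested. The ubiquinone-reducing part had 3 probes and no call (median 0.20). Its members Ndufa9, at 0.23 ± 0.10 (adjusted p = 0.0935), and Ndufs3, at 0.20 ± 0.08, were above 0 on all 6 arrays. The remaining member, Ndufa5, stood at -0.05 ± 0.41 and was above 0 on 3 arrays.

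Ndufa13, also known as GRIM-19, is a membrane arm subunit that was first described as a gene of interferon- and retinoid-induced cell death. With treated RNA in Cy5 its ratio was 0.47, 0.61 and 0.38 on sets 1, 2 and 3, and in Cy3 it was 0.54, 0.74 and 0.67. All 6 arrays were above 0 and the orientations overlapped. Its mean was 0.57 ± 0.09, a 1.48-fold rise (adjusted p = 0.00203), and the call held whichever set was left out. Ndufc2, another accessory subunit of the membrane arm, read 0.26, 0.61 and 0.45 in Cy5 and 0.40, 0.23 and 0.38 in Cy3. It rose 1.31-fold, by 0.39 ± 0.05 (adjusted p = 0.0108), again on all 6 arrays. Without set 2 its mean was 0.37 and the call was lost (adjusted p = 0.0585).

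Ndufab1 is both a complex I subunit and the acyl carrier protein of mitochondrial fatty acid synthesis. It had 4 probes, and they did not give 1 answer. Probe 2574 read -0.86, -0.52 and -0.38 when treated RNA was in Cy5 and -0.71, -0.30 and -0.06 in Cy3. Probe 15095 read -0.59, -1.02 and -0.14 in Cy5 and -0.40, -0.31 and -0.04 in Cy3. Both were below 0 on every array, with set 3 nearest to 0 in both orientations. The first fell by 0.47 ± 0.29 (adjusted p = 0.0183) and the second by 0.42 ± 0.30 (adjusted p = 0.0323). The call of the first was lost without set 1 (-0.31, adjusted p = 0.0919) or set 2 (-0.50, adjusted p = 0.0763), and that of the second without set 1 (-0.38, adjusted p = 0.0786) or set 2 (-0.29, adjusted p = 0.183). The other two probes stood at -0.22 ± 0.12 and 0.10 ± 0.10 and did not pass. The lowest and the highest of the 4 were 0.57 apart, the widest gap among the 6 member genes with several tested probes. When probes were averaged per gene, Ndufab1 was no longer called.

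The other complex I subunits lay between -0.24 (Ndufb3, adjusted p = 0.0809) and 0.23 (Ndufa9). Ndufa3, the accessory subunit called only with zeros kept, stood at 0.18 ± 0.01. Its small SD hides a difference between orientations, with a mean of -0.03 when treated RNA was in Cy5 and 0.39 in Cy3. A probe annotated to the pseudogene Ndufs5-ps stood at 0.13 ± 0.13 and was counted here with complex I.

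Complex I is built with the help of assembly factors, of which 5 Ndufaf genes were tested. Ndufaf5, a methyltransferase-like protein that in human cells modifies a core subunit during early assembly, was the only one called. Its ratio was 0.24, 0.18 and -0.20 when treated RNA was in Cy5 and 0.71, 0.60 and 0.42 in Cy3. The 3 arrays of the second orientation were all above those of the first. The mean rise was 0.33 ± 0.19 (adjusted p = 0.0418), and the call was lost without set 1 (0.25, adjusted p = 0.189) or set 2 (0.29, adjusted p = 0.165). Ndufaf3 stood at 0.14 ± 0.02, Ndufaf7 at 0.00 ± 0.11, Ndufaf2 at -0.08 ± 0.12 and Ndufaf4 at -0.09 ± 0.10, with no call.

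Complex II, succinate dehydrogenase, is the enzyme shared by the respiratory chain and the citric acid cycle. The members analysed here were Sdhb, its iron-sulfur subunit, and Sdhc, a membrane anchor. Sdhb stood at 0.15 ± 0.08 (adjusted p = 0.249) with a 95% interval from -0.05 to 0.34. Sdhc stood at -0.15 ± 0.26 (adjusted p = 0.347) with an interval from -0.41 to 0.10. Neither passed, and their signs differed.

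Complex III, the cytochrome bc1 complex, had 8 probes of 7 genes, all tested. Of these 0 were higher and 1 was lower, and the median was -0.05 with an SD of 0.04. Uqcrh, the hinge protein beside cytochrome c1, was the one that fell. With treated RNA in Cy5 it read -0.35, -0.56 and -0.99, and in Cy3 it read -0.34, 0.10 and -0.52. Set 3 was lowest in both orientations, and 1 array was above 0. The mean was -0.44 ± 0.27, 1.36-fold lower in treated cells (adjusted p = 0.0216). Without set 3 it was -0.29 and the call was lost (adjusted p = 0.112).

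Uqcrb, which helps to bind ubiquinone, had the highest mean of complex III at 0.47 ± 0.61 and did not pass (adjusted p = 0.109). Its ratio was 1.07, 0.14 and 0.16 when treated RNA was in Cy5 and 1.26, 0.10 and 0.07 in Cy3. Both arrays of set 1 were thus far above the other 4, and without set 1 the mean was 0.12 (adjusted p = 0.550). Without set 3 it was 0.64 and passed (adjusted p = 0.0320). Uqcr11 stood at -0.26 ± 0.17 (adjusted p = 0.0796) and the Rieske iron-sulfur protein Uqcrfs1 at -0.23 ± 0.08 (adjusted p = 0.0835). The probes of Uqcrq differed in sign, at 0.24 ± 0.09 (adjusted p = 0.0762) and -0.12 ± 0.21. Cyc1, cytochrome c1, stood at 0.12 ± 0.13. Cycs, the mobile cytochrome c that also triggers apoptosis once released, stood at 0.02 ± 0.11 (adjusted p = 0.914) with an interval from -0.19 to 0.22.

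Complex IV, cytochrome c oxidase, had 15 probes of 14 genes, and 11 were tested. Here 1 probe was higher, 2 were lower and the median was -0.11 with an SD of 0.15. The called share was 27.3%, near the 27.1% of all probes. Several subunits come in isoforms, one made in most tissues and one made mainly in heart and skeletal muscle. All 3 calls were in such subunits, which also held uncalled probes of Cox7a1 and Cox8b. Cox6a2, the muscle isoform of subunit 6a, read 1.43, 0.46 and 0.54 when treated RNA was in Cy5 and 0.99, 0.49 and 0.38 in Cy3. All 6 arrays were above 0, and those of set 1 were highest in both orientations. The mean was 0.72 ± 0.43, a 1.64-fold rise (adjusted p = 0.00816). Without set 1 it was 0.47 and still passed (adjusted p = 0.0126). Cox6a1, the isoform of most tissues, was listed at 0 on 2 arrays and was not tested, and its values were 0.13, 0.33 and 0.39 in Cy5 and 0.14 on set 3 in Cy3.

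Cox7a1, the muscle isoform of subunit 7a, had a pair of probes. Probe 11546 read -0.32, -0.52 and -1.06 when treated RNA was in Cy5 and -0.04, -0.40 and -0.32 in Cy3, below 0 on all 6 arrays. It fell by 0.44 ± 0.26 (adjusted p = 0.0194), and the call was lost without set 2 (-0.43, adjusted p = 0.0961) or set 3 (-0.32, adjusted p = 0.0952). Probe 1802 stood at -0.19 ± 0.25 and did not pass (adjusted p = 0.230). Cox7a2, the isoform of most tissues, read -0.40, -0.67 and -1.02 in Cy5 but only -0.17, 0.01 and -0.09 in Cy3. The orientations did not overlap. It fell by 0.39 ± 0.14 (adjusted p = 0.0157), a call lost without set 2 (-0.42, adjusted p = 0.0565) or set 3 (-0.31, adjusted p = 0.0874). Cox7a2l, a relative that joins complexes III and IV into supercomplexes, stood at 0.13 ± 0.13 without passing.

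The remaining isoforms gave no call. Cox8b, the muscle isoform of subunit 8, stood at 0.12 ± 0.22, and its partner Cox8a was listed at 0 on 3 arrays. Cox4i1, which belongs to the early core of the complex, had 5 values, 0.08, 0.22 and -0.05 in Cy5 and 0.14 and 0.26 in Cy3. Cox6b1 was at -0.17 ± 0.16 and Ndufa4, now counted as a complex IV subunit, at 0.00 ± 0.18. Cox6c, the lowest of the other tested subunits, was at -0.21 ± 0.20, and Cox5b stood at 0.07 ± 0.11. A muscle isoform thus rose in subunit 6a and fell, on 1 of its probes, in subunit 7a.

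Markers of striated muscle were also measured in this macrophage line. Of their 13 tested probes 5 were higher, 1 was lower and 7 did not pass, with a median of 0.23, where 14.8% of all probes were higher and 12.2% lower. The deposited ratios show only differences, so whether any of these markers was expressed above background was not measured. Tnnt2 rose by 0.93 ± 0.32. Tnni3 rose by 0.81 ± 0.25 on 1 probe, with the other at -0.13 ± 0.29. Myh7 rose by 0.63 ± 0.35 and 0.47 ± 0.06 on its called probes, with another at 0.23 ± 0.26. Mb, myoglobin, rose by 0.55 ± 0.16 on 1 probe, with the other at -0.00 ± 0.05, and Ckm, creatine kinase of muscle, fell by 0.28 ± 0.07. Acta1 at -0.18 ± 0.13, Actc1 at -0.14 ± 0.26 and the Myh6 probes at -0.04 ± 0.16 and 0.24 ± 0.05 did not pass. Myl2 had a value on 4 arrays and was not tested. On sets 2 and 3 it read -0.50 and -0.43 when treated RNA was in Cy5 and -0.57 and -0.68 in Cy3. With 1 set left out, the 5 higher probes still passed each time and Ckm did not (adjusted p = 0.0851 to 0.175). With zeros kept, the Myh7 probe at 0.47 passed (adjusted p = 0.0330), and the other 5 called probes did not (adjusted p = 0.0590 to 0.145). The part of these markers in the ratios of Cox6a2 and Cox7a1 was not tested.

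Among the other marker lists, 4 of 9 macrophage probes were higher and 1 was lower, where 14.8% of all probes were higher and 12.2% lower. Fcgr1 rose by 1.96 ± 0.15, Aif1 by 1.40 ± 0.28 on its tested probe, Adgre1 by 0.94 ± 0.09 and Ptprc by 0.40 ± 0.01 on 1 of its 3 probes. Another Aif1 probe had 5 values and was not tested. It read 0.25 and 0.19 on sets 1 and 3 in Cy5 and 0.33, 0.11 and -0.03 in Cy3. Csf1r fell by 0.53 ± 0.22. Csf1r did not pass without set 2 (-0.50, adjusted p = 0.0534) or with zeros kept (adjusted p = 0.0977). Cd68 at 0.02 ± 0.06, Cd14 at 0.01 ± 0.06 and the other Ptprc probes at 0.08 ± 0.17 and -0.08 ± 0.16 did not pass. The fibroblast genes Dcn and Lum rose, 2 of 5 probes, by 2.68 ± 0.95 and 1.92 ± 0.35, as did Cd79a, 1 of 4 B cell probes, by 0.63 ± 0.11. Of these Dcn did not pass with zeros kept (adjusted p = 0.0789). The fibroblast collagens Col1a1 at 0.01 ± 0.07, Col1a2 at 0.07 ± 0.24 and Col3a1 at -0.21 ± 0.16 did not pass. Nor did the B cell probes of Cd79b, at -0.07 ± 0.23, and Ms4a1, at -0.08 ± 0.27 and 0.12 ± 0.23. Of 5 T cell probes and 1 tested epithelial probe 0 were called.

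Complex V, the ATP synthase, had 21 probes of 16 genes, of which 15 were tested. None was called higher and 4 (26.7%) were lower, where 14.8% of all probes were higher and 12.2% lower. Of the 15 means 12 were below 0 and 3 above, where 47.9% of all tested probes had a mean above 0. The median was -0.10 with an SD of 0.08. All 4 calls were in the stalk and membrane part, where 4 of 8 tested probes fell (median -0.20). These were 2 probes of Atp5j2 and the related pair of Atp5k and Atp5k-ps1. Only the Atp5k probe passed whichever set was left out. The catalytic F1 head had 4 tested probes with a median of -0.10, and the proton-carrying c ring had 3 with a median of -0.06, with no call in either.

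Atp5k, subunit e, sits where ATP synthase dimers meet. Its ratio was -0.54, -0.36 and -0.58 when treated RNA was in Cy5 and -0.47, -0.18 and -0.50 in Cy3. All 6 arrays were below 0 and the orientations overlapped. It fell by 0.44 ± 0.15, which is 1.35-fold (adjusted p = 0.00952), and passed whichever set was left out. A probe annotated to the pseudogene Atp5k-ps1 read -0.51, -0.55 and -0.69 in Cy5 and -0.40, 0.04 and -0.21 in Cy3. It fell by 0.39 ± 0.11 (adjusted p = 0.0136), and did not pass without set 1 (-0.35, adjusted p = 0.0577) or set 3 (-0.36, adjusted p = 0.0560). Probe sequences were not used here, so whether this probe also binds Atp5k RNA was not tested and the pair is not counted as independent.

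Atp5j2, subunit f of the membrane part, had probes that agreed in sign. Probe 7557 read -0.44, -0.21 and -0.49 when treated RNA was in Cy5 and -0.35, -0.15 and -0.18 in Cy3. Probe 15616 read -0.54, -0.42 and -0.59 in Cy5 but only -0.07, 0.02 and -0.01 in Cy3. The first thus lay below 0 in both orientations, whereas the second lay near 0 in one of them. They fell by 0.30 ± 0.11 (adjusted p = 0.0360) and 0.27 ± 0.06 (adjusted p = 0.0486). Neither passed once any 1 set was left out, with means of -0.37 to -0.26 for the first (adjusted p = 0.0585 to 0.162) and of -0.30 to -0.25 for the second (adjusted p = 0.0934 to 0.176). The second also missed the threshold once arrays were centred (adjusted p = 0.0540) or scaled (adjusted p = 0.0550).

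No F1 subunit passed. Atp5e was at -0.20 ± 0.28, Atp5b, the catalytic beta subunit, at -0.09 ± 0.14, and the probes of Atp5c1, the rotating gamma subunit, at -0.10 ± 0.09 and 0.01 ± 0.04. In the c ring, Atp5g2 stood at -0.01 ± 0.07. The 2 probes of Atp5g1, which makes the same mature c subunit, stood at -0.26 ± 0.08 (adjusted p = 0.0581) and -0.06 ± 0.23. Their orientations pointed in opposite ways. The first had a mean of 0.06 when treated RNA was in Cy5 and -0.57 in Cy3, and the second had -0.66 in Cy5 and 0.54 in Cy3. The highest complex V means were those of Atp5j at 0.14 ± 0.26 and Atp5pb, subunit b of the stalk, at 0.14 ± 0.22.

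Of the 10 untested probes 4 belonged to complex IV and 6 to complex V, and none was listed at 0 on all arrays. In all, 12.2% of member probes and 21.8% of all probes lacked a value on some array. Atp5a1, the alpha subunit, and Atp5o, which couples the head to the stalk, had a value on 1 array each. Both Atp5d probes and Cox5a were listed at 0 on 3 arrays. The second Atp5j probe was also listed at 0 on 3 arrays and read -2.82 and -2.32 when treated RNA was in Cy5 and 2.62 in Cy3, opposite in sign by orientation. Atp5md, a small membrane subunit, had 1 array listed at 0 and read 1.32, -0.81 and 0.04 in Cy5 and 0.90 and -0.84 in Cy3. These probes were outside the test on 6 values, and no direction is given for them.

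The sign of complex I followed the dye orientation. Its median over subunit probes was -0.05, -0.12 and -0.14 on the arrays of sets 1, 2 and 3 when treated RNA was in Cy5 and 0.13, 0.20 and 0.12 with treated RNA in Cy3. The orientations did not overlap. Of its 29 probes, 25 had a lower mean with treated RNA in Cy5. For complex V the medians were -0.20, -0.12 and -0.29 in Cy5 and -0.19, 0.04 and -0.01 in Cy3. Those of complex III were 0.03, 0.07 and -0.10 in Cy5 and -0.10, -0.02 and -0.18 in Cy3, and those of complex IV were -0.10, 0.03 and -0.23 in Cy5 and -0.07, 0.16 and -0.13 in Cy3. Complexes III and IV overlapped between orientations. The median of all tested probes stayed between -0.01 and 0.02 on every array.

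**Figure D3:**
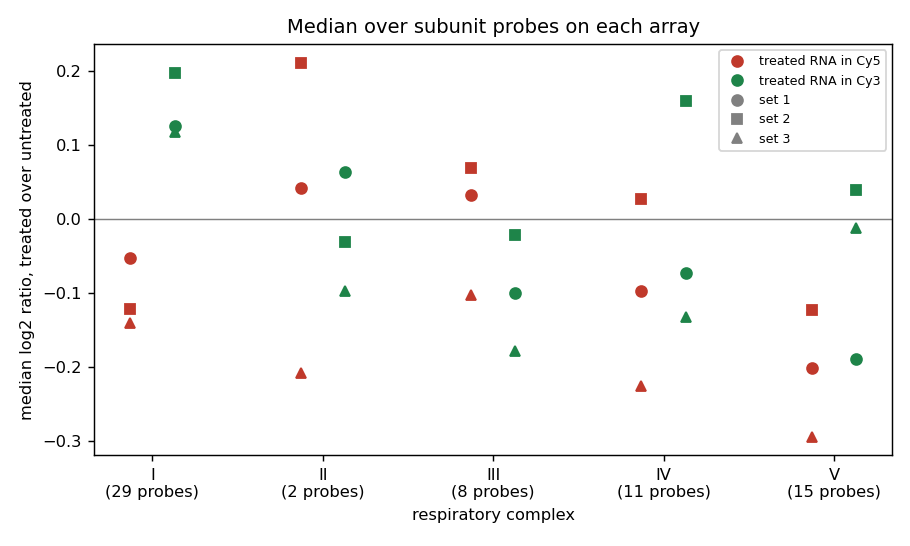
Median log2 ratio, treated over untreated (y axis), over the tested subunit probes of each complex (x axis), 1 point per array; colour marks the dye of the treated RNA and marker shape the set. Complex I lies at -0.14 to -0.05 on the 3 arrays with treated RNA in Cy5 and at 0.12 to 0.20 on the 3 with treated RNA in Cy3.

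Over all members, 55 of the 72 tested probes (76.4%) had a lower mean with treated RNA in Cy5 than in Cy3, against 52% of all tested probes. All 9 lower calls were more negative with treated RNA in Cy5. The averages used for the calls give each orientation the same weight, so a dye effect that is equal in both cancels from the mean. Tested probe by probe, 0 of the 72 members had a dye effect (limma adjusted p under 0.05), against 0.181% of all probes, or 23 of 12724. At an unadjusted p under 0.05 (limma) there were 26 such probes among the 72 members, a larger share than the 26.3% of all probes. For 9 members (12.5%) every array of one orientation was above 0 and every array of the other below, against 7.21% of all probes, and none of the 9 was a called member.

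**Figure D4:**
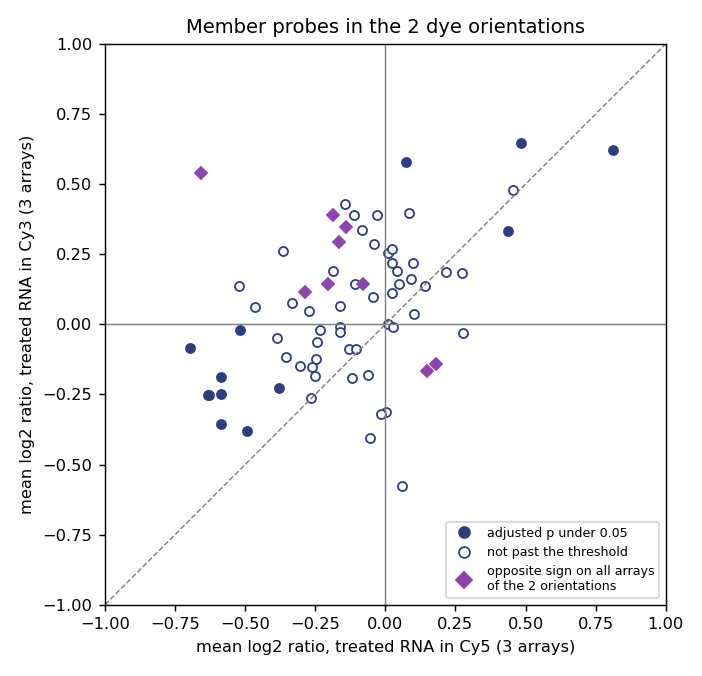
Mean log2 ratio of each tested member probe with treated RNA in Cy5 (x axis, 3 arrays) against that with treated RNA in Cy3 (y axis, 3 arrays); filled circles passed an adjusted p of 0.05, diamonds have opposite signs on all arrays of the 2 orientations, and the dashed line marks equal values. Of the 72 points, 55 lie above the dashed line.

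Genes that build or feed the complexes, outside the member rule, were described from 3 further lists. Of 15 tested probes of other assembly factors 5 were higher and 3 were lower, with a median of 0.01. Over all probes, 14.8% were higher and 12.2% lower. Cox17, the copper chaperone of complex IV, read 0.79, 1.08 and 0.78 when treated RNA was in Cy5 and 0.73, 1.11 and 0.75 in Cy3. It rose 1.83-fold, by 0.87 ± 0.19 (adjusted p = 0.000404), a higher mean than that of any tested member. Surf1, another complex IV assembly factor, rose by 0.56 ± 0.12 (adjusted p = 0.00247), and Cox16 rose by 0.40 ± 0.24 (adjusted p = 0.0253). Nubpl, which delivers iron-sulfur clusters to complex I, rose by 0.34 ± 0.12, and Ttc19, a complex III factor, rose by 0.41 ± 0.03 on 1 probe, with the other at -0.08 ± 0.10. The complex III factors Uqcc2 and Bcs1l fell by 0.45 ± 0.18 and 0.28 ± 0.02, and the complex I factor Acad9 fell by 0.35 ± 0.10. The small SD of Bcs1l hides a spread over arrays. It read -0.24, -0.67 and -0.48 when treated RNA was in Cy5 and -0.31, 0.12 and -0.13 in Cy3. When the 6 arrays were fitted with set number as a block, Bcs1l did not pass (limma adjusted p = 0.0975). With 1 set left out, Cox17, Surf1, Ttc19 and Uqcc2 still passed each time. Cox16 and Nubpl did not pass without set 1 or set 2 (adjusted p = 0.1 to 0.133), Acad9 did not without set 2 or set 3 (adjusted p = 0.0782 and 0.0940), and Bcs1l did not without any 1 of them (adjusted p = 0.105 to 0.129).

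Of 11 tested probes of carriers and other electron entry points, 3 were higher and 0 were lower, with a median of 0.10. All 3 belonged to 1 gene, Sqor, which oxidises hydrogen sulfide and hands the electrons to ubiquinone. They stood at 1.35 ± 0.20, 1.23 ± 0.15 and 0.56 ± 0.13 (adjusted p = 3.29e-05, 3.68e-05 and 0.00258). Among 7 tested regulators of mitochondrial biogenesis 0 were higher and 2 were lower, with a median of 0.02. The shares over all probes were 14.8% higher and 12.2% lower. Nrf1, the factor whose motif was searched above, fell by 0.77 ± 0.24 (adjusted p = 0.00120), with values of -0.88, -0.57 and -0.40 when treated RNA was in Cy5 and -1.20, -0.80 and -0.76 in Cy3. Tfam, which packages and transcribes mitochondrial DNA, fell by 0.34 ± 0.17 (adjusted p = 0.0308), a call lost without set 1 (-0.26, adjusted p = 0.170) or set 2 (-0.35, adjusted p = 0.109). Of the called genes of these lists, Cox17 (adjusted p = 0.0482), Surf1 (adjusted p = 0.0491) and 2 of the 3 Sqor probes (adjusted p = 0.0286 and 0.0324) also passed with zeros kept, as did Ttc19 and Bcs1l. Nrf1 did not (adjusted p = 0.0681), nor did Tfam, Cox16, Nubpl, Uqcc2, Acad9 and the third Sqor probe (adjusted p = 0.0505 to 0.16). The mitochondrially encoded subunits were not analysed here.

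**Figure D5:**
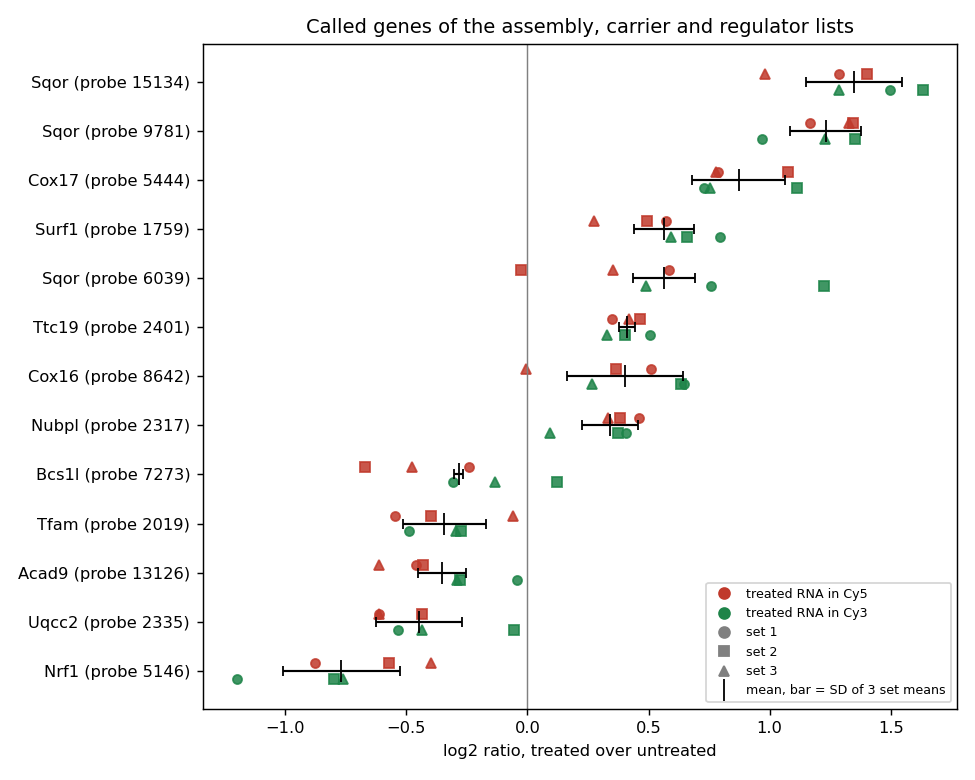
Log2 ratio, treated over untreated (x axis), of the called probes of the assembly factor, carrier and regulator lists (y axis) on each of 6 arrays; colour marks the dye of the treated RNA, marker shape the set, and the black bar the mean with the SD of 3 set means. Sqor and Cox17 lie at the top and Nrf1, at -0.77, at the bottom.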

How the data were processed

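The authors deposited 1 log ratio of Cy5 over Cy3 per probe and array, read here as log2. The sources used here do not give its base, the scanner, or how background, dyes and poor spots were handled. Per the labels, Cy5 and Cy3 carried treated and untreated RNA in both orientations. The sign was turned on the 3 arrays with treated RNA in Cy3, exact zeros (read as placeholders) were set to missing, and the orientations of each set were averaged. Set means (n = 3) went into limma 3.58.1 (R 4.3.3; intercept and eBayes, two-sided against 0), with Benjamini-Hochberg adjustment over 12724 probes with 6 values. No deposited column was left unmapped, and no pair of arrays held identical values.

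Members came from the platform annotation (13738 probes with 1 symbol, 52 with several, 2491 with none), and all 82 matched the RefSeq table (GRCm38.p6) by gene ID. The members and gene lists were chosen with earlier results of these data known. The text names every called member, the 2 highest and 2 lowest probes per complex, the isoform pairs, the Ndufaf genes, called genes of the other lists, and Ndufa13, Atp5k, Cox6a2 and Uqcrh, which an earlier account named. The procedure was tested on simulated ratios. Figures were drawn with matplotlib 3.10.9.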

Additional observations from a re-analysis of the deposited data

Results flagged for a closer look

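For 9 member probes the sign of the ratio was opposite in the 2 dye orientations on all 6 arrays, and this is why each is listed here. The dye effect, given as the log2 shift that both orientations of the deposited ratio share, was -0.60 for a probe of Atp5g1 (probe 13735). It was -0.29 for Ndufab1 (probe 8298), -0.24 for Ndufc1, -0.23 for Ndufb10 and -0.20 for Ndufaf2. For Atp5h it was -0.17, for Ndufa2 it was -0.11, and it was positive for Uqcrc1 (0.16) and Atp5g2 (0.16). None of the 9 passed a test of the dye effect (limma adjusted p = 0.0977 to 0.224), and none was called for treatment. Their mean treatment ratios are averages of values of opposite sign, so their small size does not show that the RNA was equal in both conditions.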

How the results depend on the processing

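With zeros kept as values, 3 member probes were higher and 0 lower, and 1407 of 16281 probes were called in all. The prior degrees of freedom of limma were then 0.76, against 6.33 with zeros missing. Taking the 6 arrays as separate samples gave 7 higher and 14 lower members, 29.2% of them, against 33.7% of all probes. Leaving out 1 set gave 2 to 5 higher and 3 to 4 lower members and 2191 to 2655 calls over all probes. Of the 13 called probes, 7, 5 and 7 still passed without set 1, 2 and 3, and Ndufa13, Cox6a2 and Atp5k passed each time. The complex III median was -0.0863 to -0.0031 over these, and 0.0208 with probes averaged per gene, so its sign is not settled. That of complex II is not settled either, with medians of -0.0505 to 0.0709 when 1 set was left out. In single sets, complex I had a median of -0.0104 in set 3 and complex IV of 0.0477 in set 2. Both are opposite in sign to the complex's main median. The cause of these shifts was not tested. Centring each array or scaling it gave 4 higher and 8 lower, as did leaving out probes annotated to pseudogenes, an alternative chosen after seeing the data. Centring or scaling called 16.7% of member probes each, against 26.7% and 25.3% of all probes. Averaging per gene gave 4 and 6 of 64 genes, 15.6% of them, against 27.8% of all genes tested. Of the 49 called probes of the members and the other lists, 0 changed sign under any alternative run. Keeping zeros, or fitting the 6 arrays as separate samples or with a replicate block, leaves the mean of a called probe unchanged. Those settings therefore could not change a sign. In the paired fit, 6 arrays with set number as a replicate block, 4 members were higher and 9 lower, and 3405 probes were called in all. Deviations of same-numbered arrays correlated at 0.528, 0.0773 and 0.167 in sets 1, 2 and 3, and 1 array of set 2 did not correlate best with its own number, so the numbers are not shown to pair the arrays. The number of arrays limits the precision. Signal over background was not analysed here.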
